A study of Mus musculus with 24 samples.

Results

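The gene list described here covers hepatic fatty acid oxidation, ketone body handling and targets of PPARα. It names 39 genes, and a gene was measured where the array annotation gives a probe set that gene's symbol and no other, the brightest such probe set by its mean over all arrays being used. This gave 37 of the 39 genes, among 18194 genes with a probe set on the array, and all 37 passed the filter on low values that left 14159 genes to test. Acsl1 had no probe set of this kind, and Cyp4a10 was only on a probe set that names more than 1 gene, so neither was analysed here.

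The 24 arrays hold liver RNA of male mice in 8 groups of 3, from 4 genotypes of the thyroid hormone receptor TRβ, each given T3, the active thyroid hormone, or PBS alone and killed 6 h after the injection. The wild type (WT), the TRβ knockout (KO) and the GS mutant, which carries E125G and G126S in TRβ, were of C57BL/6J background. From 8 to 9 weeks of age they were kept hypothyroid for 3 weeks on 0.02% methimazole, 0.5% perchlorate, 0.3% saccharin and a diet low in iodine, so the PBS groups are hypothyroid animals too. The Y147F mutant of TRβ, of C57BL/6JCrl background, came in a later submission, treated from 10 to 11 weeks of age for 3 weeks with 0.05% methimazole, 1% perchlorate and a diet of the same kind. As background, GS alters the DNA-binding domain of TRβ and was made to separate actions through DNA from others, and Y147F was made to cut the receptor's link to PI3K signalling. T3 was given at 20 µg per 100 g in the earlier and 200 ng per g in the later submission, in both as 1 intraperitoneal dose. Y147F and the submission cannot be told apart in any comparison with WT, whereas T3 against PBS within Y147F lies inside that submission. The labels do not say how the knockout was made, and its only probe set for Thrb, the gene of TRβ, read 6.82 to 7.25 in the KO arrays and 6.38 to 7.01 in the WT arrays. That probe set therefore did not check the KO label, and where it lies relative to the deleted part was not analysed here.

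Hepatocytes take up fatty acids, activate them to acyl-CoA and pass them into mitochondria through the carnitine shuttle, where the oxidation spiral shortens them to acetyl-CoA, which fasting liver turns into ketone bodies. Peroxisomes shorten very long and branched chains, and the ω-hydroxylases of the Cyp4a family act on the other end of the chain. PPARα, a nuclear receptor for fatty acids, switches on many of these genes, with the coactivator PGC-1α (Ppargc1a), and thyroid hormone is known to raise fatty acid oxidation in liver. Both receptor families pair with RXR and bind DNA at repeats of the core motif AGGTCA, spaced by 1 base for PPARα and by 4 bases for TRβ.

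The promoters of 5 of the called genes are shown, each as the 250 bases before the annotated start, from RefSeq (build GRCm38.p6). Decr2 (chr17:26090165-26090414, minus strand), Cpt2 (chr4:107923590-107923839, minus strand) and Slc27a2 (chr2:126552774-126553023, plus strand) are the members that rose with T3 in WT. Acadm (chr3:153944644-153944893, minus strand) and Cd36 (chr5:17835897-17836146, minus strand) were lower in the KO liver without T3. Capitals mark the core motif AGGTCA or its reverse complement TGACCT.
Decr2: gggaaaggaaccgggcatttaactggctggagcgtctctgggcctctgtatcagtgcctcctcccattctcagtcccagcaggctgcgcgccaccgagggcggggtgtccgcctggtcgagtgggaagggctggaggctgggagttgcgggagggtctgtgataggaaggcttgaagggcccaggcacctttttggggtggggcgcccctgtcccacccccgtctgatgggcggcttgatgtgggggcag
Cpt2: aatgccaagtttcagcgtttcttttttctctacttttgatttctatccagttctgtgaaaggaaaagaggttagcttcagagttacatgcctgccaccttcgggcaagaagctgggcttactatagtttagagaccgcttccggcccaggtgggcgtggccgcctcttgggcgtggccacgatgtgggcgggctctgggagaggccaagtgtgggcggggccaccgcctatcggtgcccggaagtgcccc
Slc27a2: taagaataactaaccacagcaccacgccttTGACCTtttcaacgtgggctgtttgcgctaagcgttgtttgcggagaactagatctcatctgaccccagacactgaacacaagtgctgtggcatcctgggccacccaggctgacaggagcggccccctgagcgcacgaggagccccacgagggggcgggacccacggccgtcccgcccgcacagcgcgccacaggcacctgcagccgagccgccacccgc
Acadm: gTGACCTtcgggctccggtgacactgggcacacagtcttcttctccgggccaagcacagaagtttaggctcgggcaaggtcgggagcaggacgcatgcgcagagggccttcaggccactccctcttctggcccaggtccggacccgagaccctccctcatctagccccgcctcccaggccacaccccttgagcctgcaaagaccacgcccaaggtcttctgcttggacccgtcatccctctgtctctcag
Cd36: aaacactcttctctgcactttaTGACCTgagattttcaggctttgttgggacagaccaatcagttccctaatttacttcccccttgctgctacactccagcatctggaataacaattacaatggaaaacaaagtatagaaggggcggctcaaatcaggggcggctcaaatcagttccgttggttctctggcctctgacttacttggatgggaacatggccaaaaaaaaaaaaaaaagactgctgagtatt
The core motif stands at base -220 of Slc27a2, -249 of Acadm and -228 of Cd36, counted from the start, and it is not in these stretches of Decr2 and Cpt2. The same stretch of Ehhadh, not shown and also called lower in KO without T3, did not hold it either. Over the 250 bases before the start, on both strands, 7 of the 29 measured members with a promoter sequence held AGGTCA (24.1%). The share over 32851 promoters was 14.0%. A member was counted where any of its promoters held the motif, while this share counts each promoter singly. The same holds for the patterns below. The 7 were Acadm, Acadvl, Cd36, Cpt1a, Fabp1, Plin2 and Slc27a2. Of the members called in KO without T3, only Acadm, Cd36 and Slc27a2 were among them, and these are the ones shown. The stretches shown thus hold the motif more often than the list does. The spaced repeat AGGTCANAGGTCA was in 0 of the 29 and in 0.0335% of all promoters, and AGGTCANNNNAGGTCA in 0 of the 29 and in 0.0152%. With 1 free base in each copy, AGGNCANAGGNCA was found in Fabp1 alone among the 29 (3.45%, against 0.338% of all promoters), and AGGNCANNNNAGGNCA in none (0.213%). The longer patterns overlap the core motif, and these matches describe letters and not bound sites.

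Values below are log2 intensities, and differences are on the log2 scale ± SE with n = 3 arrays per group. A gene is called where limma's adjusted p, over all 14159 genes, is under 0.05. The labels do not say outright that arrays are separate animals, so p-values set a difference against the scatter between these samples. That scatter was pooled over all 8 groups, Y147F included, in every comparison. The tissue is bulk liver, so fewer cells of a type and less RNA per cell cannot be told apart.

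In WT, T3 raised 3 of the 37 members within 6 h, where 5.72% of all genes rose, and lowered none, where 4.89% fell. They were the peroxisomal dienoyl-CoA reductase Decr2, the inner carnitine palmitoyltransferase Cpt2 and the very long chain acyl-CoA synthetase Slc27a2. The share, 8.11%, was below that of all genes tested, of which 10.6% were called in this comparison. The PBS and T3 arrays did not overlap for 11 of 37 members, beside 29.5% of all genes. The members' median difference was -0.05, beside -0.03 for all genes. In Y147F, T3 changed 4 of 37 members (10.8%) beside 11.6% of all genes: Decr2, Cpt2 and Ppargc1a rose and the lipoprotein lipase inhibitor Angptl4 fell. In both genotypes the list as a whole thus changed about as often as the rest of the measured genes.

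**Figure D1:**
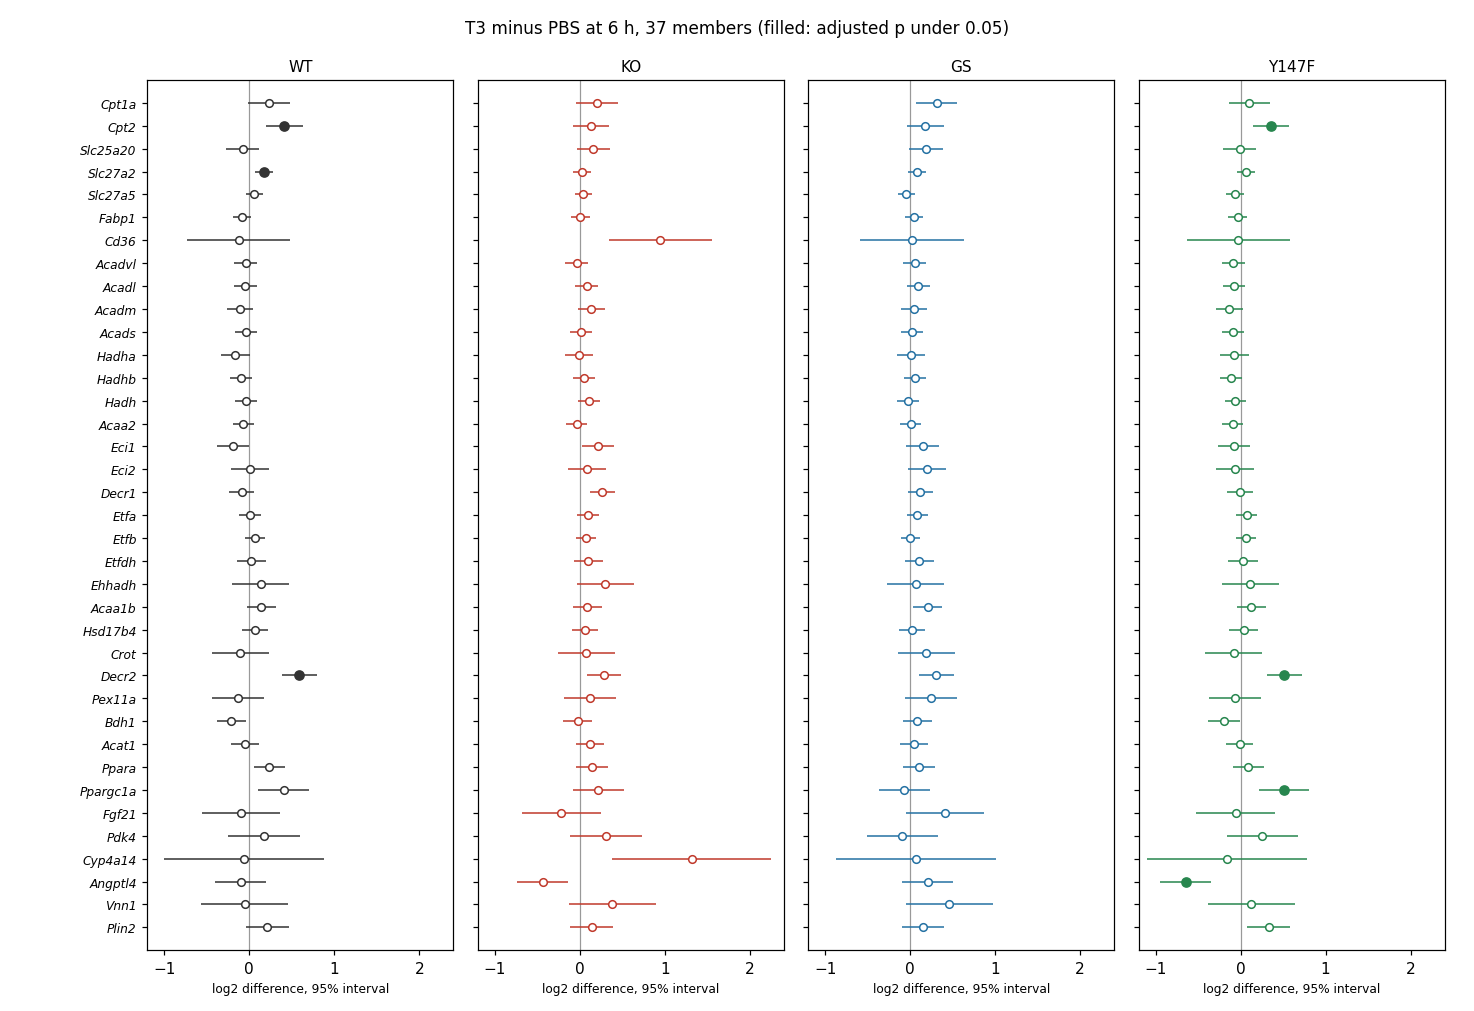
T3 minus PBS (log2, x axis) with 95% intervals for the 37 measured members in WT, KO, GS and Y147F; filled points have an adjusted p under 0.05. Decr2 and Cpt2 are filled in WT and in Y147F, and no point is filled in KO or GS.

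Among the genes of uptake, activation and the carnitine shuttle, 2 of 7 rose in WT. Cpt2, which rebuilds acyl-CoA inside the mitochondrion, read 11.73, 11.72 and 11.99 in the PBS arrays and 12.21, 12.23 and 12.23 in the T3 arrays of WT. In Y147F it read 11.98, 11.99 and 11.82 with PBS and 12.28, 12.44 and 12.14 with T3. The groups did not overlap in either genotype, with differences of 0.41 ± 0.10 in WT (limma adjusted p = 0.0104) and 0.36 ± 0.10 in Y147F (adjusted p = 0.0262). The WT call was lost without WT PBS replicate 1 or 2 (adjusted p up to 0.0573), and the Y147F call without Y147F PBS replicate 3, T3 replicate 1 or T3 replicate 2 (up to 0.136) and, for Y147F, with the mean of its probe sets or in a fit of only the arrays compared. In KO, Cpt2 read 12.04, 11.86 and 11.97 with PBS and 11.93, 12.24 and 12.11 with T3, groups that overlapped. In GS, 12.04, 11.83 and 11.92 stood against 12.32, 11.99 and 12.02, again with overlap.

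Slc27a2 had a small spread within groups, with an SD of 0.0388 against a median of 0.120 over all genes tested. It read 14.04, 14.09 and 14.02 with PBS and 14.21, 14.21 and 14.25 with T3 in WT, a rise of 0.17 ± 0.05 (limma adjusted p = 0.0298), or 1.13-fold. Every T3 array lay above every PBS array, but the call was lost without any 1 array other than WT PBS replicate 2 (adjusted p up to 0.108), with no filter on low values (0.0515) and in a fit of only the arrays compared (0.141). In Y147F the PBS arrays read 14.19, 14.23 and 14.16 and the T3 arrays 14.25, 14.24 and 14.29, apart by little, and 0.07 ± 0.05 was not called. KO read 14.30, 14.26 and 14.31 with PBS and 14.29, 14.37 and 14.28 with T3, with overlap. GS read 14.26, 14.17 and 14.24 against 14.36, 14.29 and 14.27, without overlap and without a call. Cpt1a, the outer carnitine palmitoyltransferase that limits entry into mitochondria, was not called in any genotype, with T3 differences of 0.23 ± 0.12 in WT, 0.20 ± 0.12 in KO, 0.31 ± 0.12 in GS and 0.10 ± 0.12 in Y147F. Of its WT arrays, those with PBS read 11.43, 11.97 and 11.73 and those with T3 11.97, 11.88 and 11.96, so the highest PBS array lay among the T3 arrays. The carnitine carrier Slc25a20, the bile acid and fatty acid ligase Slc27a5 and the fatty acid binding protein Fabp1 differed by -0.09 to 0.06 in WT, none of them called.

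None of the 8 enzymes of the mitochondrial spiral was called after T3 in any genotype. These are the acyl-CoA dehydrogenases Acadvl, Acadl, Acadm and Acads, the trifunctional protein subunits Hadha and Hadhb, the hydroxyacyl-CoA dehydrogenase Hadh and the thiolase Acaa2. In WT all 8 differences lay below 0, from -0.17 (Hadha) to -0.04, with a median of -0.06, where 8360 of all 14159 genes were also below 0. In Y147F all 8 were below 0 as well, from -0.13 (Acadm) to -0.06. In KO 5 of 8 and in GS 7 of 8 were above 0, with medians of 0.03 in both. The 95% intervals of the 8 in WT ran from -0.33 to 0.09, so at 6 h a rise of more than 1.07-fold lay outside each of them.

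The auxiliary enzymes for unsaturated chains (the isomerases Eci1 and Eci2 and the reductase Decr1) and the electron transfer proteins Etfa, Etfb and Etfdh gave 0 calls of 6 after T3 in WT, KO, GS and Y147F alike. At an unadjusted p under 0.05, limma gave 1 of 6 in WT, Eci1 at -0.19 ± 0.09, beside 3278 of all 14159 genes. Decr1 had the T3 difference between genotypes nearest to a call: its response was 0.27 ± 0.07 in KO and -0.09 ± 0.07 in WT, a difference of 0.36 ± 0.10 (adjusted p = 0.0647). That difference was called under 4 of the other settings and without KO PBS replicate 3, at adjusted p from 0.0305 to 0.0437. The second Decr1 probe set, however, differed after T3 by 0.09 in WT and 0.27 in KO, so the direction in WT and the size of the difference depend on the probe set.

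Of the 6 peroxisomal members, Decr2 was the single one called. It read 11.47, 11.89 and 11.84 with PBS and 12.31, 12.21 and 12.46 with T3 in WT. In Y147F the values were 11.77, 11.76 and 11.64 with PBS and 12.16, 12.28 and 12.27 with T3. No T3 array overlapped a PBS array in either genotype, and the rise was 0.59 ± 0.10 in WT (1.51-fold, limma adjusted p = 0.000250) and 0.52 ± 0.10 in Y147F (1.43-fold, adjusted p = 0.00113). Both calls held under every other setting and without each array in turn. In KO, Decr2 read 11.79, 11.88 and 11.98 with PBS and 12.09, 12.35 and 12.06 with T3. In GS it read 12.05, 11.92 and 12.02 with PBS and 12.31, 12.31 and 12.28 with T3. The KO and GS groups did not overlap either, but their differences of 0.28 ± 0.10 and 0.31 ± 0.10 were not called (adjusted p of 0.291 and 0.452, respectively). The responses of KO and GS were lower than that of WT by 0.31 ± 0.14 and 0.28 ± 0.14, differences that were not called (adjusted p = 0.347 and 0.380). The bifunctional enzyme Ehhadh, the thiolase Acaa1b, the multifunctional enzyme Hsd17b4, the carnitine octanoyltransferase Crot and the peroxisome proliferation factor Pex11a differed by -0.13 to 0.14 in WT. Hsd17b4 lacks Y147F T3 replicate 2, and Acaa1b has a near-identical neighbour, Acaa1a, whose signal cannot be told apart here.

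**Figure D2:**
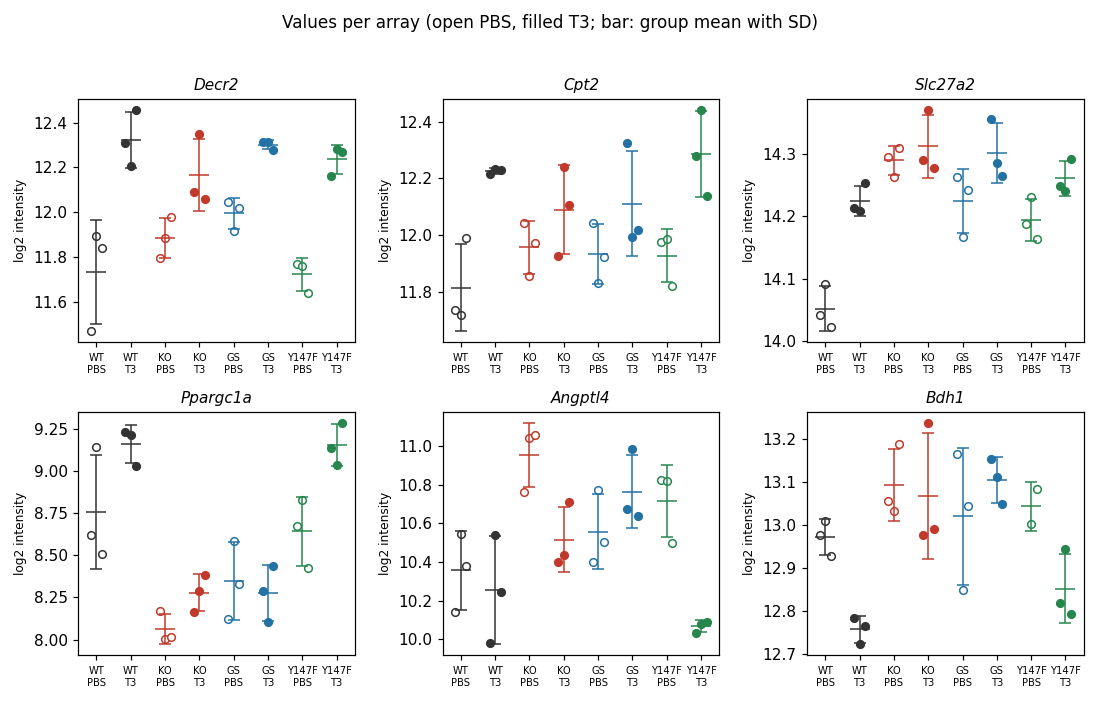
Log2 intensity (y axis) of 6 members in every array, by genotype and treatment; open points are PBS, filled points T3, and bars give the group mean with its SD. The 3 T3 arrays of WT, at 12.21 to 12.46 for Decr2, lie above all WT PBS arrays, and Ppargc1a lies lower in KO and GS than in WT after T3.

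Both ketone body enzymes, the hydroxybutyrate dehydrogenase Bdh1 and the acetoacetyl-CoA thiolase Acat1, gave no call for T3. Bdh1 read 12.98, 13.01 and 12.93 with PBS and 12.78, 12.72 and 12.77 with T3 in WT. The groups did not overlap, yet the difference of -0.21 ± 0.08 was not called (limma adjusted p = 0.104). In Y147F, where 1 PBS value is missing, it was -0.19 ± 0.09.

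Among the regulators, Ppargc1a rose in Y147F. It read 8.68, 8.83 and 8.42 with PBS and 9.14, 9.04 and 9.29 with T3 there, without overlap, a rise of 0.51 ± 0.14 (limma adjusted p = 0.0225). The call was lost without Y147F PBS replicate 3, T3 replicate 1 or T3 replicate 3 and with array weights (adjusted p up to 0.116). In WT it read 8.62, 9.14 and 8.51 with PBS and 9.23, 9.21 and 9.03 with T3. One WT PBS array reached the T3 range, and the difference of 0.40 ± 0.14 was not called (adjusted p = 0.0812). Without that array, WT PBS replicate 2, it was 0.60 and called (adjusted p = 0.00565), as was the mean of the 5 Ppargc1a probe sets at 0.51 (adjusted p = 0.0161). In KO the difference was 0.22 ± 0.14 and in GS -0.07 ± 0.14, neither called. PPARα itself (Ppara) read 11.13, 11.13 and 11.31 with PBS and 11.46, 11.49 and 11.33 with T3 in WT. These did not overlap, but the difference of 0.24 ± 0.09 was not called (adjusted p = 0.101). The hepatic hormone Fgf21 and the pyruvate dehydrogenase kinase Pdk4 differed by -0.10 ± 0.22 and 0.17 ± 0.20 in WT.

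Of the other PPARα targets, Angptl4 fell in Y147F. It read 10.82, 10.82 and 10.50 with PBS and 10.03, 10.08 and 10.09 with T3, without overlap, a change of -0.65 ± 0.14 (limma adjusted p = 0.00455). In WT it read 10.14, 10.55 and 10.38 with PBS and 9.98, 10.54 and 10.24 with T3, and the groups overlapped. In KO 10.76, 11.04 and 11.06 stood against 10.40, 10.44 and 10.71, with no overlap and no call. GS read 10.40, 10.77 and 10.50 with PBS and 10.67, 10.98 and 10.64 with T3, and overlapped. The response of Y147F was lower than that of WT, by -0.54 ± 0.20, without a call (adjusted p = 0.898). A second Angptl4 probe set read under the level of the filter in every array and carries no information here. The ω-hydroxylase Cyp4a14, the pantetheinase Vnn1 and the lipid droplet coat protein Plin2 were not called in any genotype after T3.

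In KO and GS no member was called after T3, beside 0.177% and 0.148% of all genes. Of the 37 differences, 31 in KO and 33 in GS lay above 0, beside 6596 and 7317 of all 14159 genes. Their medians were 0.10 and 0.08, beside -0.0095 and 0.0045 for all genes. In WT and Y147F 16 and 15 of 37 lay above 0, beside 5799 and 6896 of all genes. Members are not independent of each other, and single arrays lay lowest or highest for most of them, as given below. At an unadjusted p under 0.05 limma gave 6 of 37 in KO and 3 of 37 in GS, beside 1468 and 992 of all 14159 genes. Again 0 members were called without any 1 array. None of the 37 responses was called different between KO and WT (3.09% of all genes called) or between GS and WT (2.92%). At an unadjusted limma p under 0.05 there were 7 and 3, beside 1765 and 1921 of all 14159 genes. None was called between Y147F and WT or between GS and KO either, where 0% of all genes was called. Here 1 and 2 members had an unadjusted limma p under 0.05, beside 755 and 809 of all 14159 genes. A missed call does not show equal responses: the 95% intervals of the difference between KO and WT ran from -0.78 to 2.71 over the members, widest for Cyp4a14.

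Without T3, the KO liver differed from WT in 10 of 37 members (27%), beside 6.87% of all genes. Lower in KO were Cyp4a14, the fatty acid translocase Cd36, Ppargc1a, Ehhadh, Acadm, Eci1 and Decr1. Higher were Fgf21, Angptl4 and Slc27a2. Of all genes, 3.11% were called lower and 3.76% higher, and KO and WT arrays did not overlap for 17 of 37 members, beside 23.6% of all genes. The median over the members was 0.05, beside 0.00 for all genes, so the list did not move 1 way. The 2 largest differences were in Cyp4a14 and Cd36. In a fit of only the 6 arrays compared 3 were called, Cd36, Fgf21 and Angptl4.

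**Figure D3:**
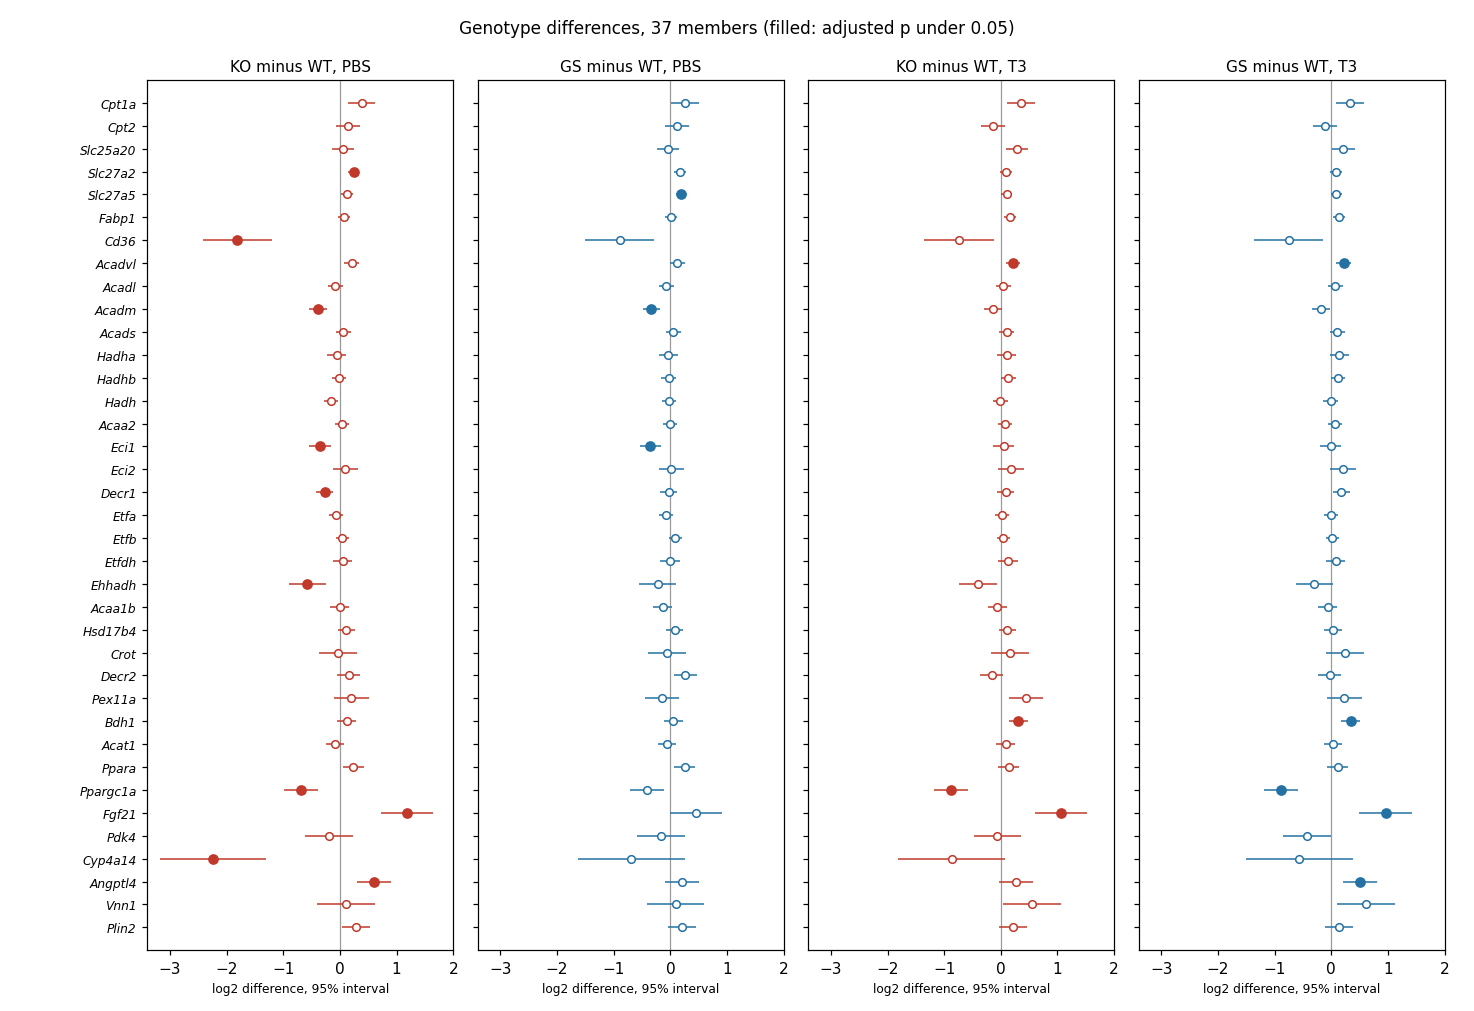
Differences from WT (log2, x axis) with 95% intervals for the 37 measured members in KO and GS, with PBS and after T3; filled points have an adjusted p under 0.05. Cd36 and Cyp4a14 lie furthest left in KO with PBS, and Fgf21 lies furthest right there.

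Cd36, which brings fatty acids across the cell membrane, read 11.22, 11.47 and 11.62 in WT with PBS and 9.89, 8.85 and 10.13 in KO. All KO arrays lay below all WT arrays, and the difference was -1.81 ± 0.29, a level 3.51-fold lower in KO (limma adjusted p = 0.000687). Its 3 probe sets gave -1.91 to -1.61. Cd36 was called under every other setting, and without KO PBS replicate 2 the difference was -1.42 (adjusted p = 0.00419). GS lay between, at 10.45, 10.59 and 10.57, also without overlap with WT, but the difference of -0.90 ± 0.29 was not called (adjusted p = 0.113). It was called with array weights (adjusted p = 0.0466) and in a fit of only the arrays compared (0.00952). Y147F read 11.13, 11.74 and 11.24, within and around the WT range.

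Cyp4a14, an ω-hydroxylase much used as a reporter of PPARα activity, read 13.69, 13.74 and 13.65 in WT with PBS, 13.83, 13.85 and 13.77 in Y147F and 13.10, 12.70 and 13.21 in GS. In KO it read 11.80, 9.87 and 12.68, below all other groups with PBS and spread over a far wider range than they were. The difference from WT was -2.25 ± 0.45 (4.74-fold lower, limma adjusted p = 0.00415). Without KO PBS replicate 2 it was -1.45 (adjusted p = 0.0127), and in the fit of only the 6 arrays its adjusted p was 0.0905. Its spread pooled over all 8 groups, an SD of 0.619, was the widest among the members. By group the SD was 1.44 in KO with PBS and 0.86 in KO with T3. It was 0.05 in WT and 0.27 in GS with PBS, so the pooled SE is wide for GS against WT. GS differed from WT by -0.69 ± 0.45 (adjusted p = 0.557), which was called in a fit of only the arrays compared (SE 0.13, adjusted p = 0.0424). From KO it differed by 1.55 ± 0.45 (adjusted p = 0.190), which was called without KO PBS replicate 3 at 2.17 (adjusted p = 0.0360). Cyp4a10, a close paralogue, was not analysed here, and whether its transcript adds to this signal was not tested.

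**Figure D4:**
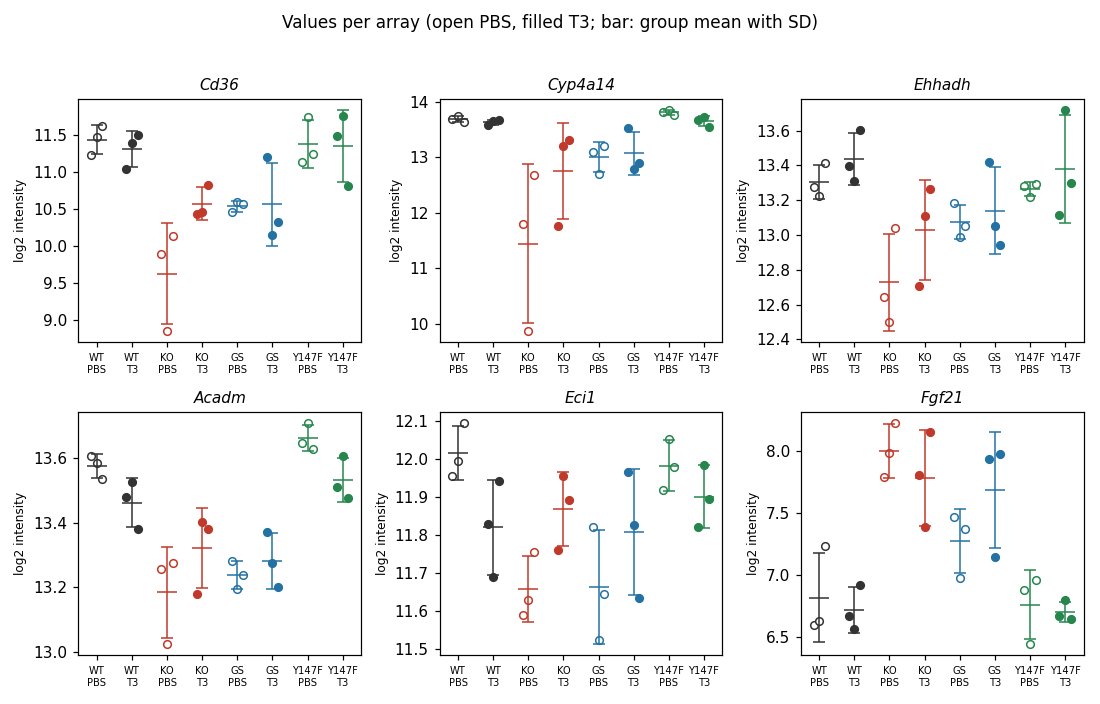
Log2 intensity (y axis) of 6 members in every array, by genotype and treatment; open points are PBS, filled points T3, and bars give the group mean with its SD. The KO PBS arrays of Cd36, at 8.85 to 10.13, lie below those of every other group, and the KO arrays of Fgf21 lie above those of WT.

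Fgf21, a hormone that liver secretes in fasting and that PPARα induces, went the other way. It read 6.60, 6.63 and 7.23 in WT with PBS and 7.79, 7.99 and 8.22 in KO, without overlap, a level 2.27-fold higher in KO (1.18 ± 0.22, limma adjusted p = 0.00251). With PBS, GS read 7.47, 6.98 and 7.37, between KO and most WT arrays, and Y147F 6.88, 6.44 and 6.96. The difference of GS from WT, 0.45 ± 0.22, was not called (adjusted p = 0.369). The Fgf21 call in KO held under every other setting and without each array.

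Ppargc1a read 8.17, 8.01 and 8.01 in KO with PBS, below all WT arrays, a difference of -0.69 ± 0.14 (limma adjusted p = 0.00524). All 5 of its probe sets were lower in KO, by -0.75 to -0.50. In GS it read 8.12, 8.59 and 8.33, which overlapped WT, and -0.41 ± 0.14 was not called (adjusted p = 0.149). Acadm, the medium-chain acyl-CoA dehydrogenase, was lower in both mutants. It read 13.61, 13.59 and 13.54 in WT, 13.26, 13.02 and 13.27 in KO and 13.28, 13.20 and 13.24 in GS. Neither mutant overlapped WT, with differences of -0.39 ± 0.07 for KO (limma adjusted p = 0.00268) and -0.34 ± 0.07 for GS (adjusted p = 0.0139). The GS call was lost without WT PBS replicate 1 or 2 or GS PBS replicate 2 or 3 (adjusted p up to 0.0619).

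The remaining calls in KO rested on smaller differences. Ehhadh read 13.27, 13.22 and 13.41 in WT and 12.64, 12.50 and 13.04 in KO (-0.58 ± 0.16, limma adjusted p = 0.0326), a call lost without any 1 array other than KO PBS replicate 3 (adjusted p up to 0.154). Eci1 read 11.96, 12.00 and 12.10 in WT and 11.59, 11.63 and 11.76 in KO, without overlap. Its difference, -0.36 ± 0.09 (adjusted p = 0.0198), was no longer called without WT PBS replicate 2 or 3 or KO PBS replicate 1 or 2 (up to 0.0844). Decr1, at -0.27 ± 0.07 (adjusted p = 0.0254), lost it without any WT PBS array or without KO PBS replicate 2, and its second probe set was higher in KO by 0.15, so that the mean of both gave -0.06 and no call (adjusted p = 0.768). Angptl4, at 0.60 ± 0.14 (adjusted p = 0.0133), lost it without WT PBS replicate 1 or KO PBS replicate 2 or 3 (up to 0.0742). Slc27a2, at 0.24 ± 0.05 (adjusted p = 0.00627), held without each array. The spiral enzymes other than Acadm differed by -0.15 to 0.21 and were not called. Acadvl, at 0.21, was called under quantile normalisation, the filter at the 60th percentile, averaged probe sets, the robust variance trend and array weights. It was also called without WT PBS replicate 1 (limma adjusted p from 0.0227 to 0.0425 in these fits). Under quantile normalisation Hadh was called as well, at -0.20 (adjusted p = 0.0350). Cpt1a was higher in KO by 0.38 and not called, and its 3 probe sets gave 0.38 to 0.50. It was called with the filter at the 60th percentile, the robust variance trend and without WT PBS replicate 2 (limma adjusted p from 0.0180 to 0.0455). Slc27a5, higher by 0.12, was called with the robust variance trend alone (adjusted p = 0.0499).

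GS with PBS differed from WT in 3 members (8.11%), beside 2.95% of all genes: Acadm, Eci1 at -0.35 ± 0.09 (limma adjusted p = 0.0374) and Slc27a5 at 0.20 ± 0.05 (adjusted p = 0.0329). The last 2 lost the call when any of 5 of the 6 arrays was left out, the exceptions being GS PBS replicate 1 for Eci1 and WT PBS replicate 3 for Slc27a5. Slc27a5 also lost it under quantile normalisation and with no filter (adjusted p = 0.0878 and 0.0567), and both lost it in the first-submitted arrays alone and in a fit of only the arrays compared (adjusted p from 0.0517 to 0.206). Eci1 read 11.82, 11.52 and 11.64 in GS, below all WT arrays. Slc27a5 read 13.76, 13.78 and 13.85 in WT and 13.98, 14.00 and 13.99 in GS, above all WT arrays. Slc27a2 was higher in GS by 0.17 and not called. It was called with the filter at the 60th percentile, averaged probe sets, the robust variance trend and array weights (limma adjusted p from 0.00951 to 0.0457). Between GS and KO no member was called (0.0989% of all genes), with 8 of 37 at an unadjusted limma p under 0.05, beside 1208 of all 14159 genes. KO and GS were compared with the same WT arrays, so their shared members are not independent of each other. Y147F against WT gave 0 of 37 with PBS (0.0848% of all genes) and 0 of 37 after T3 (0.00706%). At an unadjusted limma p under 0.05 there were 3 and 0, beside 1956 and 1193 of all 14159 genes.

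After T3, KO differed from WT in 4 of 37 members (6.93% of all genes) and GS in 5 (5.61%). Ppargc1a was lower in both. It read 9.23, 9.21 and 9.03 in WT, 8.16, 8.29 and 8.38 in KO and 8.29, 8.11 and 8.44 in GS, without overlap with WT, and both differences were -0.88 ± 0.14 (limma adjusted p = 0.000549 and 0.000654). Both calls held under every other setting and without each array.

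Fgf21 stayed higher after T3. It read 6.67, 6.57 and 6.92 in WT, 7.81, 7.38 and 8.15 in KO and 7.93, 7.14 and 7.97 in GS, with no overlap with WT (1.06 ± 0.22, adjusted p = 0.00475, and 0.96 ± 0.22, adjusted p = 0.0136). The GS call was lost without WT T3 replicate 2 or GS T3 replicate 1 or 3 (adjusted p up to 0.0777). Bdh1, at 12.78, 12.72 and 12.77 in WT, read 12.98, 13.24 and 12.99 in KO and 13.15, 13.11 and 13.05 in GS. Both mutants lay above WT without overlap, by 0.31 ± 0.08 in KO and 0.35 ± 0.08 in GS. The very long chain dehydrogenase Acadvl read 12.67, 12.68 and 12.62 in WT, 12.80, 12.98 and 12.84 in KO and 12.93, 12.91 and 12.79 in GS. It was higher by 0.22 ± 0.06 in both, again without overlap. Angptl4 was higher in GS by 0.51 ± 0.14 (adjusted p = 0.0410). These calls of Bdh1, Acadvl and Angptl4 were each lost without at least 1 array, with adjusted p up to 0.142 for Bdh1 in KO, 0.0647 for Bdh1 in GS, 0.211 and 0.159 for Acadvl and 0.178 for Angptl4. The second Bdh1 probe set was higher by 0.78 in KO and 0.72 in GS, and the mean of both gave larger differences, 0.54 and 0.54, with a spread at which neither was called (adjusted p = 0.179 and 0.202). Outside leaving out arrays, Acadvl in both mutants, Angptl4 in GS and Bdh1 in KO also lost the call in a fit of only the arrays compared (adjusted p from 0.0879 to 0.139). Acadvl in both mutants and Angptl4 in GS lost it in the first-submitted arrays alone too, and Acadvl in both mutants with no filter on low values. Fabp1, Slc25a20 and Pex11a were not called in the main fit but were called higher in KO under other settings. The same held for Fabp1 and Cpt1a in GS. Cd36 and Cyp4a14, the most reduced members in KO without T3, differed from WT by -0.74 ± 0.29 and -0.87 ± 0.45 in KO after T3 and were not called (adjusted p = 0.146 and 0.293). Cd36 was called lower in KO in a fit of only the arrays compared (adjusted p = 0.0368), and in GS, at -0.75 ± 0.29 (adjusted p = 0.157), it was called without GS T3 replicate 1, at -1.07 (adjusted p = 0.0471). Their KO levels after T3 were 10.43, 10.46 and 10.83 for Cd36 and 11.77, 13.21 and 13.31 for Cyp4a14, beside T3 differences of 0.95 ± 0.29 and 1.32 ± 0.45 within KO that were not called (adjusted p = 0.231 and 0.287).

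In several groups 1 array was the lowest or the highest for most members. KO PBS replicate 2, lowest for Cd36 and Cyp4a14, was the lowest of its group for 27 of 37 members, beside 33.3% of all genes. KO T3 replicate 1 was lowest for 29 of 37 (37.4% of all genes) and GS PBS replicate 2 for 30 of 37 (38.3%). GS T3 replicate 1 was the highest of its group for 30 of 37 (36.4% of all genes). GS PBS replicate 1 was highest for 27 of 37 (37.1%), and KO PBS replicate 3 and KO T3 replicate 2 for 26 each (35.9% and 35.2%). Y147F T3 replicate 2 was highest for 27 of the 36 members without a missing value (26.4%). In WT no array was lowest for more than 16 of 37 or highest for more than 19. These counts describe single arrays, and members of a pathway that share regulators are not independent of each other.

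**Figure D5:**
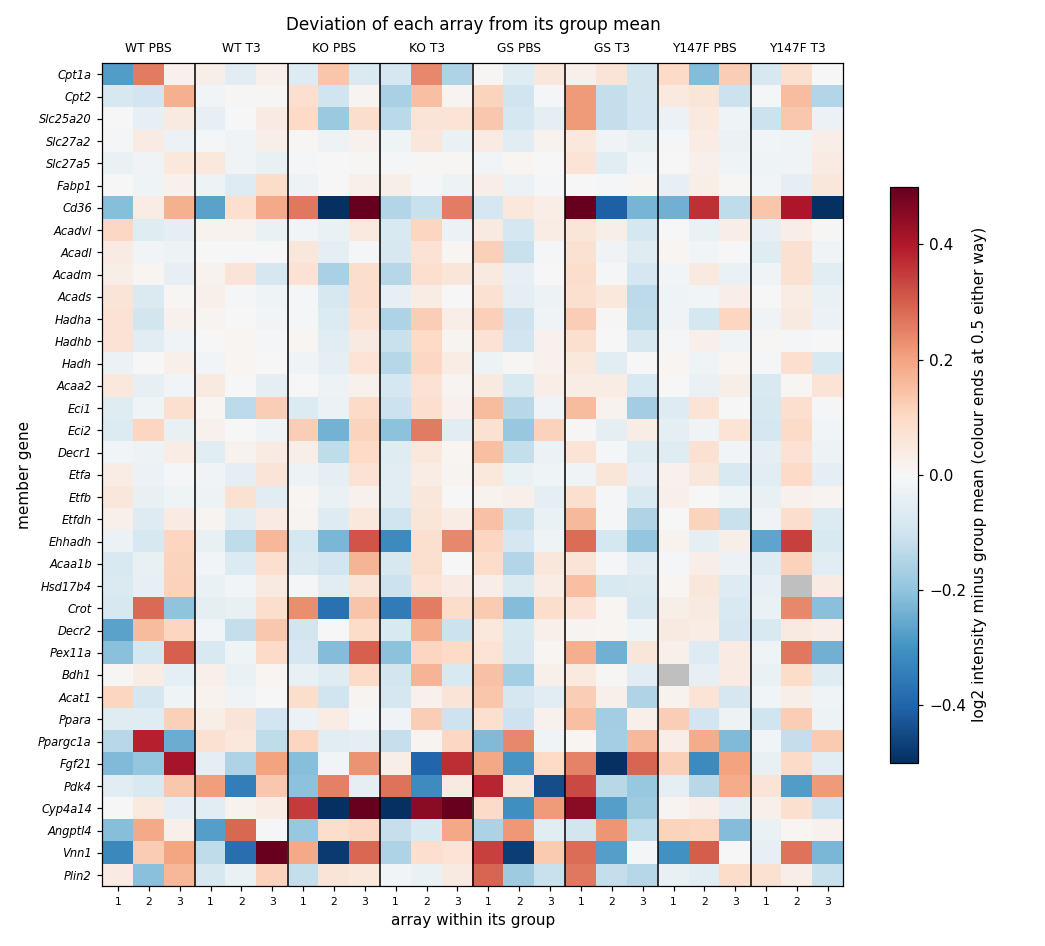
Deviation of each array (columns, 3 per group) from its group mean in log2 intensity, for the 37 measured members (rows); red is above and blue below the group mean, colours end at 0.5 either way, and grey cells are missing. The columns of KO PBS replicate 2, KO T3 replicate 1 and GS PBS replicate 2 are blue in most rows, and that of GS T3 replicate 1 is red.

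Other genes of the pathway, from lists that were also chosen with earlier results known, responded to T3 in WT: 5 of 33 further genes of fatty acid oxidation rose and 4 fell, and of 42 genes of the PPAR network and lipid droplets 7 rose and 5 fell, beside 5.72% of all genes that rose and 4.89% that fell. They included the peroxisomal CoA hydrolase Nudt7 (1.97 ± 0.23), the nuclear receptors Ppard (1.22 ± 0.13) and Pparg (-0.91 ± 0.14), and the coactivator Ppargc1b (1.07 ± 0.13). Further called genes were the monoglyceride lipase Mgll (1.13 ± 0.14), the peroxisomal transporter Abcd3 (0.72 ± 0.08), the lipase inhibitor G0s2 (-1.29 ± 0.39) and the droplet protein Plin4 (-0.95 ± 0.24). In KO and GS limma called 0 of the 75 (0.177% and 0.148% of all genes). At an unadjusted limma p under 0.05 there were 9 in each, beside 1468 and 992 of all 14159 genes. The response of KO was called different from WT in 2 of the 33 and 6 of the 42, and that of GS in 2 and 7, beside 3.09% and 2.92% of all genes. Nudt7, Ppard, Pparg, Mgll, Ppargc1b and Abcd3 were among them in both, for example Ppard with -1.01 ± 0.19 in KO and -1.09 ± 0.19 in GS, 2 contrasts that share the WT arrays.

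Array medians lay between 5.88 and 6.00, and mean correlations between arrays of a group were 0.994 to 0.996. The 10 hepatocyte markers averaged 13.4 to 13.7 in every array. With T3, 2 of the 10 were called lower in WT and 1 in Y147F, beside 10.6% and 11.6% of all genes called in either direction. After T3, 2 were called higher in KO than in WT, and in GS 1 higher and 1 lower (6.93% and 5.61% of all genes). Of 4 adipocyte markers measured, Adipoq and Lep were below the filter, while Retn (6.83 to 7.38) and Car3 (14.4 to 14.7) passed it. The control for 18S rRNA read 10.8 to 11.8 in the KO arrays and 11.9 to 13.5 in the WT arrays, so it moved with the KO differences, and its part in them was not tested. All 10 Kupffer cell markers were higher in KO than in WT with PBS, by a median of 0.21 and with 1 called (6.87% of all genes). They averaged 9.27 to 9.46 in KO against 9.06 to 9.21 in WT. Their part in the KO results, which include Cd36, a gene that macrophages express too, was not tested. In Y147F with PBS the 10 Kupffer cell markers were also higher than in WT, by a median of 0.22 with 0 called (0.0848% of all genes). They averaged 8.98 to 9.91 there. After T3 the 10 were higher in GS than in WT by a median of 0.45, with 1 called (5.61% of all genes). Of 9 stellate cell markers 5 were higher in KO with PBS and 4 lower (median 0.36). Here 1 was called lower, beside 3.11% of all genes called lower. Array means were 9.15 to 9.47 in KO and 9.03 to 9.36 in WT. With T3 in WT, 7 of 8 sinusoidal endothelial markers were lower (median -0.21), with array means of 9.14 to 9.24 against 9.35 to 9.44 with PBS. All 5 cholangiocyte markers measured were lower too (median -0.26), with array means of 6.23 to 6.37 against 6.54 to 6.83. Neither list held a called gene, beside 10.6% of all genes called. An unadjusted limma p under 0.05 was found for 5 of the 8 and 3 of the 5, beside 3278 of all 14159 genes. The part of either list in the T3 results was not tested. Y147F PBS replicate 3 stood apart in the control for RNA integrity, with a 3' to 5' difference of 0.803 for β-actin beside 0.487 to 0.598 in the first-submitted arrays. Without it the T3 calls of Decr2 and Angptl4 in Y147F held, and those of Cpt2 and Ppargc1a did not.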

How the data were processed

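Liver RNA was hybridised to Affymetrix mouse arrays of 45101 probe sets, 24 arrays in 8 groups taken from the titles. The deposited values are log2 intensities, which the authors summarised with RMA per the submitters' processing notes; no version of it was found in the labels. The 6 Y147F columns were deposited without decimal marks, which were restored so that values lay from 3 to 16, and 1191 cells (0.44%) that a spreadsheet could have turned into day numbers were set missing; of 808366 intact values damaged and restored alike, 0 came out wrong, which checks the steps but not the assumptions.

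The brightest probe set per gene was kept, and 14159 genes reached the 40th percentile of an array in at least 3 arrays. In R 4.3.3, limma 3.58.1 fitted 8 group means with empirical Bayes moderation, and 15 contrasts were tested two-sided with Benjamini-Hochberg adjustment. The steps were tested on simulated data. All members could be named; values in every array are given for members called in a T3 response and for those that carry the genotype results, and other pathway genes are the 8 largest changes called. The members and lists were chosen with earlier results of these data known. Alternatives were quantile normalisation, other filters, averaged probe sets, array weights, a variance trend fitted robustly, subsets of arrays and leaving out each array. The number of arrays limits precision.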

Additional observations from a re-analysis of the deposited data

How the results depend on the processing

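No member called in a comparison changed direction under any alternative. Counts of members called moved beyond 1.5 times in these cases. The response difference between KO and WT gave 1 member, Decr1, under quantile normalisation, the filter at the 60th percentile, the variance trend with robust moderation and array weights, against 0. GS against WT without T3 gave 5 with array weights and 1 in the first-submitted arrays alone, against 3. GS against WT after T3 gave 3 in the first-submitted arrays alone, against 5. KO against WT without T3 gave 3 in a fit of only the arrays compared, against 10; that fit has fewer arrays to estimate the spread. Leaving out 1 array gave 1 to 3 members for T3 in WT, 2 to 4 for T3 in Y147F, 0 to 1 for the response of KO against WT, 6 to 9 for KO and 0 to 2 for GS against WT without T3, 0 to 1 for GS against KO, and 2 to 4 for KO and 2 to 3 for GS against WT after T3. For T3 in KO and GS and the other comparisons it stayed at 0. No paired analysis was possible because the titles carry a different number for each array and no replicate number shared between groups.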
